A study of Drosophila melanogaster with 4 samples.

Results

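Reproducible binding sites of tagged Doublesex in Drosophila melanogaster prepupae were not spread evenly along the genome, and 96 stretches held 8 or more of them in close succession. These stretches are called dense runs here. They were chosen by the positions and the signal values of the peak summits. Summits of the reproducible list were ordered along each chromosome arm, a summit less than 260 bp above a stronger one was dropped, and neighbours no more than 5000 bp apart were joined. Of the 9154 reproducible summits, 713 were dropped, and the remaining 8441 fell into 3941 runs of any size, 2066 of which were a single isolated summit. The dense runs held 1019 summits, called member summits, which is 12.1% of the 8441 and 11.1% of the full list. The other 7422 summits served for comparison.

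The study mapped Doublesex with ChIP-seq (chromatin immunoprecipitation followed by sequencing), in which DNA bound by a protein is recovered with an antibody and sequenced. Whole prepupae labelled 24 h of age, males and females pooled, carried dsx with green fluorescent protein (eGFP) fused to its C terminus in a stable transgenic line, labelled dsx-GFP, and an antibody against GFP was used. The 4 samples, labelled as biological replicates 1 to 4, form 1 group, and each has its own list of 30000 summits called against a shared control. The reproducible list came from replicates 2, 3 and 4, and replicate 1 was not an input, per the deposited notes. Read depth is unknown, because the lists hold no read counts. Pooled sexes and whole animals mean that a run can combine sites bound in different tissues or in 1 sex only.

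Doublesex is the DNA-binding protein at the end of the fly sex determination pathway. Male and female splice forms share its DNA-binding domain, called the DM domain, and differ in their C-terminal ends, so the forms can bind the same sites and act differently there. The tag was placed at the C terminus, where the forms differ, so it may not mark both forms. Which forms carried it was not established here. The DM domain recognises a short AT-rich core with partly symmetric flanks. Genes that control development often carry many separate enhancers spread over introns and flanking DNA, and closely spaced binding sites of a factor are a common picture at such genes.

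The sequences below show the DNA under summits of the runs that the results turn on, so that the core and its neighbours can be compared between loci. Each is the 101-base window centred on a summit, on dm6, read 5′ to 3′ on the strand on which the core closest to the summit reads ACAATGT, from the RefSeq copy of the assembly. Capitals mark the core ACAATGT or its complement, which is the Doublesex core sought at all summits. In the last 2 windows, which hold the strongest summits of the dsx and E2f1 runs and lack that core, capitals mark ACAAAGT, which differs from it at a single base. Windows that touch an untranslated region were not printed.
dsx intron by the inner start (chr3R:7961534-7961634, minus strand): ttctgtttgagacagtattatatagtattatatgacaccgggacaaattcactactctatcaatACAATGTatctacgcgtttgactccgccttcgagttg
upstream of dsx (chr3R:7973234-7973334, minus strand): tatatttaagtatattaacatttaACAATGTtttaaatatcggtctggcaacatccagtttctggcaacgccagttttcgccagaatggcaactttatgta
Rh5 (chr2L:12010350-12010450, plus strand): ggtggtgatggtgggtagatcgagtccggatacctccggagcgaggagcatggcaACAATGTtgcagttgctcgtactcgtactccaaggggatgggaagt
InR intron (chr3R:21608397-21608497, plus strand): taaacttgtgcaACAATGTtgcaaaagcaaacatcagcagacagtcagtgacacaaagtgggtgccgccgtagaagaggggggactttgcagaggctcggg
CG13073 coding exon (chr3L:16213363-16213463, plus strand): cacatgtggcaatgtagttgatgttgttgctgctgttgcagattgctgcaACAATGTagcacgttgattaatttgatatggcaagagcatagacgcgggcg
CG13073 intron (chr3L:16215561-16215661, plus strand): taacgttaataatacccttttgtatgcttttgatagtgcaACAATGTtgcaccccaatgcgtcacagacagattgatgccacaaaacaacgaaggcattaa
E2f1 intron (chr3R:21633837-21633937, minus strand): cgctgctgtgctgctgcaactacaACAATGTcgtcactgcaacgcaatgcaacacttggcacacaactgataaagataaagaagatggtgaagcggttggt
heca upstream (chr3R:30262085-30262185, minus strand): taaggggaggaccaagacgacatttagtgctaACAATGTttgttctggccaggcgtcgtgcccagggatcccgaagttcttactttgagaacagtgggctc
bantam region (chr3L:620034-620134, plus strand): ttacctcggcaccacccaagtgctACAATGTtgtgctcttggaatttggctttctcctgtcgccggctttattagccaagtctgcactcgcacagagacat
E(spl) complex (chr3R:26002872-26002972, minus strand): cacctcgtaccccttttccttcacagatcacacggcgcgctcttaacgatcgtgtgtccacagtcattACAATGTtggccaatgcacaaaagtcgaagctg
plum intron (chr3R:26485616-26485716, minus strand): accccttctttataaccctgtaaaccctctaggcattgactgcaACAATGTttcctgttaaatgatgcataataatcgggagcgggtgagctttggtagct
plum intron with 2 cores (chr3R:26489173-26489273, minus strand): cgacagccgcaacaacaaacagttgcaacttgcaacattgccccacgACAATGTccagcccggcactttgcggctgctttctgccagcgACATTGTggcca
Hipk (chr3L:544903-545003, plus strand): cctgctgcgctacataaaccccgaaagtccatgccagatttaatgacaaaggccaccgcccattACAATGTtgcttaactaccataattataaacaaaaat
Mnt intron (chrX:3686649-3686749, minus strand): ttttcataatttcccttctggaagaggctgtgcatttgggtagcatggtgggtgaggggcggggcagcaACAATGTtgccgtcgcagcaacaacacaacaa
dsx strongest summit (chr3R:7967953-7968053, minus strand): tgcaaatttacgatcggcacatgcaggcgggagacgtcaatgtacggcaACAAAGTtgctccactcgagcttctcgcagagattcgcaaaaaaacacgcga
E2f1 strongest summit (chr3R:21650687-21650787, plus strand): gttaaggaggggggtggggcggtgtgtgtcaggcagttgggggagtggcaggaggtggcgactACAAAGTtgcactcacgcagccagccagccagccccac

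Several of these windows share more than the core. The windows at Rh5, in the InR intron, in the CG13073 intron and in Mnt read GCAACAATGTTGC, the core with the same 3 bases on each side. This longer string, taken from the Rh5 window, was picked after the sequences had been read, so its counts are a description. It occurred 59 times on the chromosome arms, and 38 of those places (64.4%) lay within 50 bp of a summit, against 732 of 22973 places (3.19%) for the core alone. Of the 1019 member summits 7 held it, and of the other summits 31 of 7422. The remaining members with it were in the runs at bab1, RYBP and CG14506. At the 74 cores of member summits the base 3 before the core was G in 45.9% (34 of 74, 95% exact Clopper-Pearson interval 34.3 to 57.9%), against 33.4% of 658 cores at other summits and 20.5% of all cores on the arms. The base 2 before the core was C in 54.1% (interval 42.1 to 65.7%), against 44.4% at other summits and 24.9% on the arms. The value of the other summits lies inside the members' interval for the C and just below it for the G. All intervals cover counting error over summits only. The dsx and E2f1 windows with the changed core have the same 3 bases after it as that longer string, and the dsx window also has the same 3 before it.

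The dense runs were the upper end of the range of run sizes, and the largest held 26 summits. Runs of 8 summits, the smallest admitted, numbered 32 and held 256 summits with a median signal value of 514.9. Runs of 7, just outside the limit, numbered 48 and held 336 summits with a median signal value of 487.1. Here the signal value is the score that the authors' list gives each peak, used only to rank peaks within it. In the 96 runs the median size was 10 summits and the median span 16494.5 bp, from 8020 to 52928 bp. Together the runs covered 1704674 bp, which is 1.27% of the 133880608 bp of the arms. Inside them the median gap between neighbouring summits was 1543 bp, with the middle 50% of gaps between 988.5 and 2433 bp. The next summit outside a run lay a median of 12251 bp away, and 20 of these 192 outer gaps were under 6000 bp, so a small share of the ends depended closely on the 5000 bp limit.

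**Figure D1:**
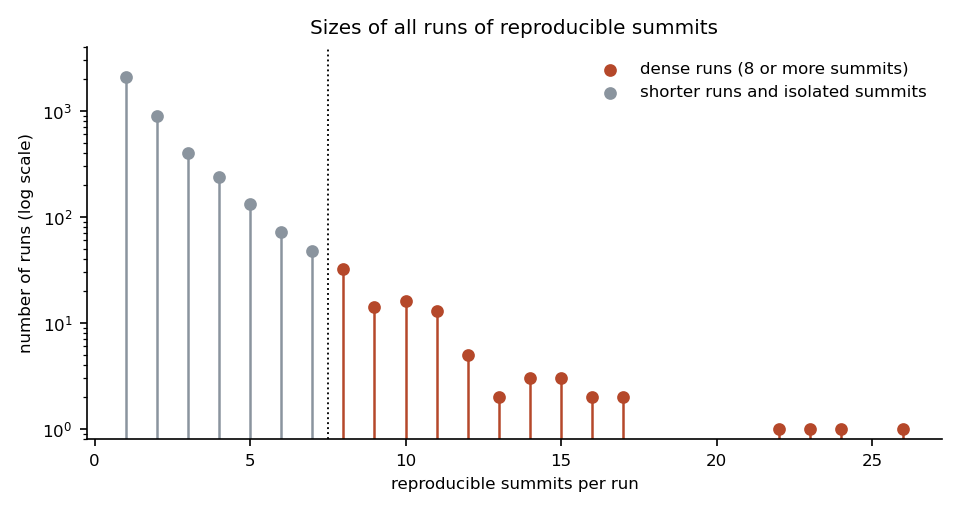
Number of runs (vertical axis, log scale) by the number of reproducible summits they hold (horizontal axis). Dense runs, with 8 or more summits, are in red right of the dotted line, and shorter runs and isolated summits are in grey. There are 2066 isolated summits, 48 runs of 7 and 32 runs of 8 summits, and the 4 largest runs hold 22 to 26.

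The runs were spread over all large arms. There were 17 on 2L, 18 on 2R, 26 on 3L, 23 on 3R and 12 on X, and none on chromosome 4, which held 28 summits. Members made up 14.7% of the summits on 3L and 8.74% on X, the highest and lowest shares among the large arms. Some runs were neighbours. The InR and E2f1 runs lay 7351 bp apart and held 33 summits together, and 2 runs inside shn, which encodes a zinc finger protein of the Dpp pathway, lay 6105 bp apart. In all, 6 neighbouring pairs were under 20000 bp apart, and 3 of them were pairs within a single gene, namely shn, sbb and mam.

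The largest run lay along dsx itself, the tagged gene (FBgn0000504, chr3R:7924323-7967408, minus strand). It held 26 summits over 52928 bp, and 20 of them were inside the gene. The strongest lay 595 bp upstream of the dsx start with a signal value of 68022, and it was ranked 1 in each of the 4 replicate lists. A summit 324 bp inside the start had a signal value of 9003 and ranked 7, 11, 32 and 29 in replicates 1 to 4. An intronic summit 5578 bp downstream of a second, inner dsx start had 6025 and ranked 26, 28, 89 and 61. The 3 summits of the run that hold the core were weaker, with 1827, 1229 and 1085. The run went on past the gene's start to CD98hc, a neighbouring amino acid transporter gene. Because dsx is also the gene that carries the tag, the comparisons are also given without its run in the closing part.

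The second strongest summit of the whole list lay in a run of 10 summits around Rh5 (FBgn0014019, chr2L:12008153-12009832), which encodes a blue-sensitive rhodopsin of photoreceptors. This summit, past the end of the gene and 2022 bp downstream of the inner of its annotated starts, had a signal value of 49509, was ranked 2 in every replicate, and held the core 8 bp from the summit. No summit of the run was inside the Rh5 gene, and 9 of the 10 were intergenic. A further summit 639 bp upstream of the outer Rh5 start had 6123 and ranked 39, 36, 70 and 43. The other 8 lay between 420.2 and 2865, so a single site stood far above its neighbours.

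Insulin and growth genes held some of the strongest runs. The InR run (FBgn0283499, insulin receptor, chr3R:21570248-21619321, minus strand) had 11 summits, all inside the gene. Its strongest, 10589 bp downstream of a start, had a signal value of 29541 and ranked 3 in each of the 4 lists. It held the core and also ACAAAGT, and the median of the run was 892.0. The E2f1 run (FBgn0011766, a transcription factor of cell cycle entry, chr3R:21620304-21660871, minus strand) had 22 summits over 36037 bp, of which 20 were inside E2f1. Its strongest had 18755 and ranked 4, 4, 6 and 6, while its single summit with the core had 2323 and ranked 344, 268, 504 and 369. The run at Sesn, which encodes an inhibitor of TOR signalling, had 8 summits. Its strongest, 576 bp upstream of the start, had 21254 and ranked 10, 5, 5 and 4, and it held neither form of the core. The run at foxo, the transcription factor that insulin signalling restrains, had 8 summits and a top signal value of 1746.

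Large runs without such a dominant peak were also found. The run that holds bantam, a microRNA gene that promotes growth and blocks cell death, had 23 summits over 41253 bp. It is called by CG13893, the coding gene with most of its summits, but only 2 lay in that gene. Its strongest summit, with the core, had 3618 and ranked 150, 118, 178 and 150. The Tis11 run (an mRNA decay factor) had 17 summits, none with the core, and its strongest ranked 846 in the reproducible list. Its microRNA gene mir-9377 lies within the run. Other microRNA genes inside dense runs were mir-4959, mir-282, mir-4978, mir-279 with mir-996, mir-92a with mir-92b, and mir-275 with mir-305, which makes 8 runs with at least 1 microRNA gene.

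The run upstream of and within heca, which encodes a regulator of imaginal cell differentiation, had 24 summits over 40525 bp. The strongest, with 12783, ranked 14, 13, 9 and 10. It was intergenic, and its nearest coding start was that of CG18404, from which it lay 6528 bp downstream. The run at CG13073, a gene of unstated function here, had 11 summits, 3 with the core. The strongest was in a coding exon, with 15121, and ranked 5, 6, 11 and 9. Of all member summits 4 (0.393%) were classed as coding exon, near the share of the other summits (30, 0.404%). The plum run, inside an immunoglobulin family gene with roles in neurons, had 10 intronic summits, and 4 of them held the core, the most of any run. These 4 had signal values of 825.4, 297.8, 1683 and 380.3. The last, with 2 cores, was absent near its position from the list of replicate 2. The Enhancer of split run, at Notch target genes, had 11 summits and the starts of 4 coding genes. Its strongest summit, with the core, had 4628 and ranked 104, 130, 76 and 66.

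**Figure D2:**
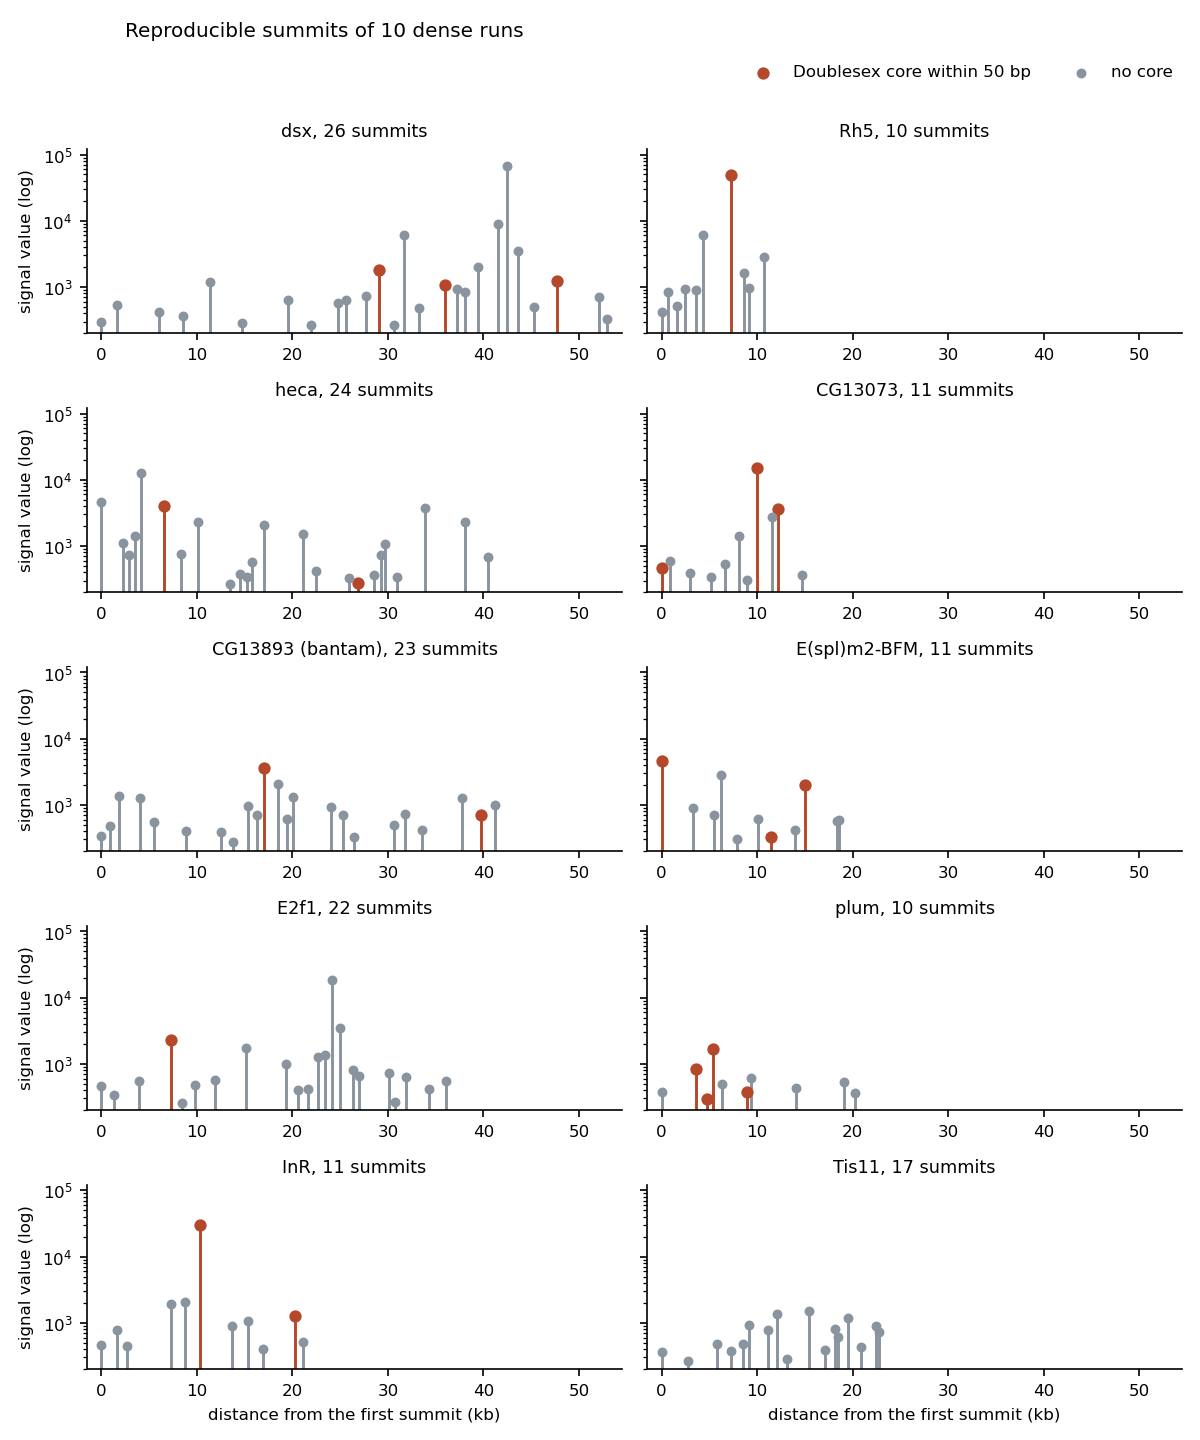
Signal value of each reproducible summit (vertical axis, log scale) by its distance from the first summit of the run in kb (horizontal axis), for 10 of the runs named in the text. Each stem is a summit, and red marks summits with the Doublesex core within 50 bp. Rh5, InR and CG13073 each show 1 summit far above the rest that holds the core, with 49509, 29541 and 15121. The strongest summits at dsx, E2f1 and heca, with 68022, 18755 and 12783, also stand far above the rest and lack the core. The Tis11 run has no red summit, and its strongest ranks 846 in the reproducible list.

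The remaining runs with the most summits lay at genes of several signalling and transcription pathways. They were CG5151 with 17 summits, the HLH inhibitor gene emc with hng3 with 16, the bHLH gene crp with 16, Mnt, whose product antagonises Myc, with 15, tara with 15, the MAP kinase kinase kinase gene Raf with 15, CG6163 with 14, the Hedgehog receptor gene ptc with 14, the transcription factor gene vri with 14 and the Arf exchange factor gene siz with 13. The strongest summits of these runs had signal values between 1196 at CG5151 and 3306 at tara. The runs at Fs, Hipk and CG43131 were named for a summit among the 25 strongest or for 3 cores. The strongest at Fs, which encodes follistatin, had 8852 and ranked 13, 15, 21 and 21. The strongest at CG43131 had 7892 and ranked 30, 31, 22 and 23, although no coding gene covers any of its 8 summits. At Hipk, a protein kinase gene, 3 of 8 summits held the core.

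In 21 runs the strongest summit was among the 100 strongest of the list. Those outside the runs described so far are named here after their values were seen. The strongest in osa, which encodes a subunit of the Brahma remodelling complex, had 5010 and ranked 84, 70, 61 and 93 in replicates 1 to 4, and all 12 summits of that run were inside the gene. The strongest of the CG14506 run, in which no coding gene covers a summit, had 7603 and ranked 21, 35, 24 and 24. The strongest in Snoo, which encodes a Smad corepressor, had 6795, ranked 29, 32, 30 and 35 and held the core. The strongest of the run at Paics, a purine synthesis gene on X, had 6359 and ranked 81, 41, 40 and 52. It lay 5029 bp downstream of its nearest coding start, that of CG4004, and only 1 of the run's 8 summits was inside Paics. The strongest of the run at ush, a GATA cofactor gene, had 6311 and ranked 31, 30, 42 and 70. In cdi, a protein kinase gene, the strongest had 5667, ranked 22, 64, 78 and 64 and held both the core and ACAAAGT. The strongest summit of the run at aos had 5582 and ranked 80, 68, 56 and 39. In CHES-1-like, a forkhead factor gene on X, the strongest had 4616, held the core and ranked 140, 205, 59 and 55, the widest spread of ranks among these. The strongest summit of the shn runs had 4626 and held the core. The run with mir-279 and mir-996, called by eEF1gamma as the nearest coding start, had a strongest summit with 5170 that ranked 56, 54, 71 and 82. In the run at COX7AL2 the strongest had 5023, ranked 55, 69, 66 and 107 and lay 3758 bp downstream of its nearest coding start, that of CG31668.

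Across the runs, the median ratio of the strongest to the median signal value was 3.68. In 13 runs it was above 10, and in 29 it was under 3. Members had a median signal value of 569.6, against 464.3 for the other summits, and 10 of the 25 strongest and 26 of the 100 strongest summits were members. The rule used these values, so they are a description. The GC content of the windows had a median of 38.6% at members and 36.6% at the others.

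Many dense runs lay along a single long gene. In 31 runs every summit was inside 1 coding gene, and in 64 at least 50% were, while 12 had no summit in a coding gene. The 81 genes that name these runs by overlap had a median length of 31364 bp, against 2166 bp for all coding genes. The naming takes the gene that covers most summits, and the longer gene in a tie, so it favours long genes by itself. The 170 coding genes with a member summit inside them or within 1000 bp of a start had a median length of 9048 bp. Gene length was not held fixed in these comparisons, which are a description. No coding start lay within 17 runs, 48 runs held the start of 1 coding gene, and 31 held starts of 2 or more.

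Of 13945 protein-coding genes 170 (1.22%) were held by a run, meaning that a member summit lay in the gene or within 1000 bp of a start. Among the longest 10% of genes the count was 75 of 1395 (5.38%). Read against these shares, the insulin, TOR and growth list had 4 of 29 genes held (InR, E2f1, Sesn and foxo), and these 4 genes were 20947 to 49074 bp long. The ecdysone response list had 3 of 28 held, namely the nuclear receptor gene Eip75B, Eip93F and vri. The disc patterning list had 4 of 44 held, which were the Hedgehog receptor gene ptc, the Dpp receptor gene tkv, the Wingless receptor gene fz2 and the EGF receptor antagonist gene aos. Among chromatin and broad transcription regulators 4 of 36 were held (bab1, cbt, lola and ush). Of the reported Doublesex targets 3 of 25 were held (dsx, Rh5 and bab1), and of the sex determination genes 2 of 22 (dsx and emc). The bab1 run, at a repressor of abdominal pigmentation, had 13 summits with a top signal value of 1793, and 12 were inside the gene. The remaining lists had 1 of 16 cell death genes (Diap1), 1 of 38 actin and muscle genes (Act5C), 1 of 29 neuronal genes (robo2), and 0 of 12 Hox genes, 0 of 26 fat body genes and 0 of 19 tracheal and epithelial genes. The lists' median gene lengths ran between 2398 and 37798 bp, some lists share genes, and no test was made on them. The lists were chosen with earlier results of these data known, so the counts are a description and no evidence for a pathway. InR and E2f1 are counted separately, although their runs are neighbours, 7351 bp apart.

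Members lay at promoters less often than the other summits. A promoter summit is within 500 bp of any annotated transcription start, and 37.4% of all 8441 summits met this. The share was 20.3% among members (207 of 1019, interval 17.9 to 22.9%), against 39.7% among the others (2947 of 7422, 38.6 to 40.8%). The odds ratio was 0.387 (two-sided Fisher exact test, p = 1.24e-35). Introns held 51.1% of members against 40.0% of the others, and intergenic DNA 24.1% against 16.9%. The median distance to the nearest start was 2202 bp for members and 996 bp for the others. Summits of a run share a locus, so p-values over summits are too small. A check kept 1 summit per run, the lowest in position, among members and others alike. The shares were then 33.3% and 44.1% (odds ratio 0.633, Fisher exact test, p = 0.0373). The lower share was present in each of 5 equal classes of signal value, at 16.8 to 24.1% of members against 36.7 to 44.7% of the others.

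**Figure D3:**
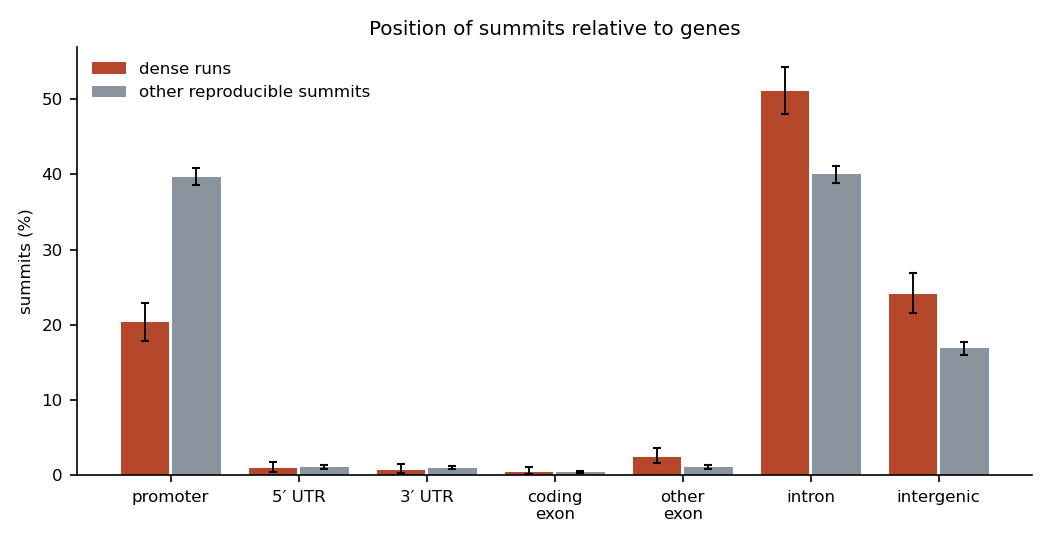
Percentage of summits (vertical axis) in each class of position relative to genes (horizontal axis), with dense runs in red left of the other reproducible summits in grey. Error bars are 95% exact binomial intervals. Promoters hold 20.3% of members and 39.7% of the others, and introns hold 51.1% and 40.0%.

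The Doublesex core was more frequent at member summits than beside them, and no difference between members and other summits passed the adjusted threshold. Among all 8441 summits 8.57% held ACAATGT within 50 bp. Among members 73 held it (7.16%, interval 5.66 to 8.92%), against 650 of the others (8.76%, 8.12 to 9.42%), with an odds ratio of 0.804 (Fisher exact test, p = 0.0945, adjusted p = 0.345 over 10 motifs). Within the members the core was 4.06 times as frequent at the summit as in the flank 500 bp away, where 18 windows (1.77%) held it (two-sided exact McNemar test, p = 3.17e-09, adjusted p = 3.17e-08). The flank used was the side with the higher share. Flanks of the other summits were not counted, so this excess is not shown to be particular to dense runs. Summits of a run share a locus, which the test did not take into account. The median distance of the core to the summit was 17 bp, and 44 of the 73 had it within 20 bp. Among summits over 500 bp from a start the share was 8.25% for members and 10.9% for the others (odds ratio 0.738, Fisher exact test, p = 0.0248), which passes the unadjusted threshold that the comparison over all summits missed.

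The core was found at some runs and not at others. At least 1 member with the core was present in 53 runs and in 43 runs there was none. This split is a description, and was not compared with the one that the overall share of 7.16% of members would give. The strongest summit of a run held it in 15 of 96 runs (15.6%, interval 9.02 to 24.5%), the second in 7.29% and the third in 9.38%. The fourth and weaker summits held it in 42 of 731 (5.75%, 4.17 to 7.69%). Place in a run is ordered by signal value, so these shares are not separate from those by signal class. By signal class the share was 8.28, 6.94, 3.74, 4.37 and 11.2% in members from the weakest to the strongest of 5 classes, against 5.89, 6.93, 7.00, 9.80 and 14.7% in the others. In the fourth class the members' interval ended at 7.88% and that of the others began at 8.32%, while in the remaining classes the intervals overlapped. Most core matches within the spans of runs were not at a member, since 67 of 280 (23.9%) were. There were 1.64 matches per 10 kb in the spans and 1.72 on the arms.

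**Figure D4:**
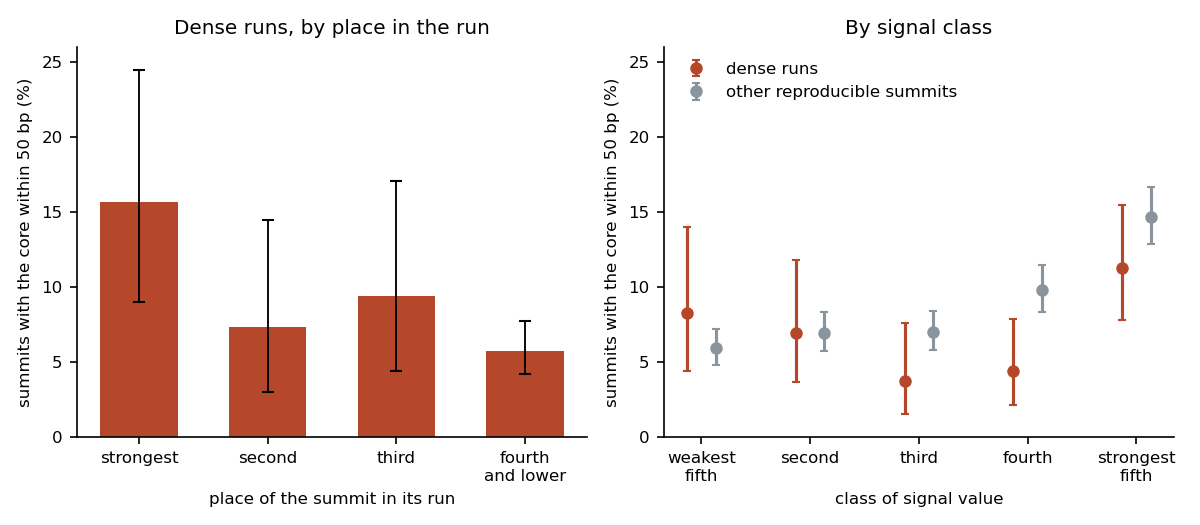
Left, percentage of member summits with the Doublesex core within 50 bp (vertical axis) by place in the run (horizontal axis). Right, the same percentage by class of signal value, with dense runs in red left of the other summits in grey. Error bars are 95% exact binomial intervals. The strongest summit of a run holds the core in 15.6% of runs, and in the strongest class the share is 11.2% for members and 14.7% for the others.

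No other sequence passed the adjusted threshold between members and other summits. ACAAAGT was within 50 bp of 7.36% of members and 7.05% of the others, and 2.36% of the members' flanks (exact McNemar test, adjusted p = 4.87e-07 against the flank). The longer Doublesex consensus was at 5.99% of members and 6.51% of the others, against 1.47% of flanks. GAGAG, the site of the GAGA factor, was at 16.9% of members and 15.1% of the others, with 16.3% in the flank. Repeats of the form CACACAC were at 5.99% of members and 4.57% of the others (Fisher exact test, p = 0.0493, adjusted p = 0.345). The DREF site TATCGATA, the E-box CACGTG, the Zelda site CAGGTAG, the nuclear receptor half-site AGGTCA and the Grainyhead site AACCGGTT were each at under 2% of members and of the others. All motifs were sought on both strands, and matches of the longer consensus overlap those of ACAATGT and ACAAAGT. A search over all 8192 sequences of 7 bases called 0% of them at an adjusted p under 0.05 in either direction (Fisher exact tests, smallest adjusted p = 0.277). At an unadjusted p under 0.05, 299 were more frequent at members and 136 at the others. Such a threshold passes some of 8192 sequences by itself, and these counts were not set against that number. The smallest p belonged to GGGGCAC, at 1.77% of members and 0.525% of the others.

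Most member summits were found again in replicate 1, which took no part in making the reproducible list. A summit counted as supported when 1 of the replicate's strongest 10000 lay within 100 bp, and 76.1% of all 8441 summits were supported in replicate 1. Among members 832 of 1019 were (81.6%, interval 79.1 to 84.0%), against 75.3% of the others (odds ratio 1.46, Fisher exact test, p = 6.44e-06). With 1 summit per run, the lowest in position, the odds ratio was 1.54 (Fisher exact test, p = 0.104). With all 30000 summits of the replicate it was 1.13 (Fisher exact test, p = 0.313). When only the stronger 4577 peaks were used the direction turned, with 88.9% of members and 93.0% of the others supported (odds ratio 0.605, Fisher exact test, p = 0.0493). Members had the higher median signal value. By the rule they also lie where summits are dense, and replicate 1 had 6.78% of its 30000 summits in run spans, which cover 1.27% of the arms. A summit of replicate 1 can thus lie within 100 bp of a member by position alone more often than elsewhere. The part of signal value or of position in the difference between members and others was not tested. Support was 53.8, 67.6, 82.4, 89.5 and 97.5% for members from the weakest to the strongest class, against 43.0, 63.6, 82.2, 92.7 and 98.1% for the others.

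Over the 4 replicates, member support was 81.6, 86.1, 90.1 and 83.5%, against 75.3, 82.8, 87.1 and 83.8% for the others. The mean was 85.3% ± 3.65 for members and 82.3% ± 4.99 for the others (SD, n = 4 each). The difference averaged 3.05 ± 2.72 percentage points (SD, n = 4) and was positive in replicates 1 to 3 and negative in replicate 4. Replicates 2 to 4 were inputs of the list and are not independent of it. Support in all 4 replicates was reached by 625 members (61.3%), against 4087 of the others (55.1%), and 4 members had none. The labels number the samples as biological replicates and do not say how they were collected, so their spread may be partly technical.

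**Figure D5:**
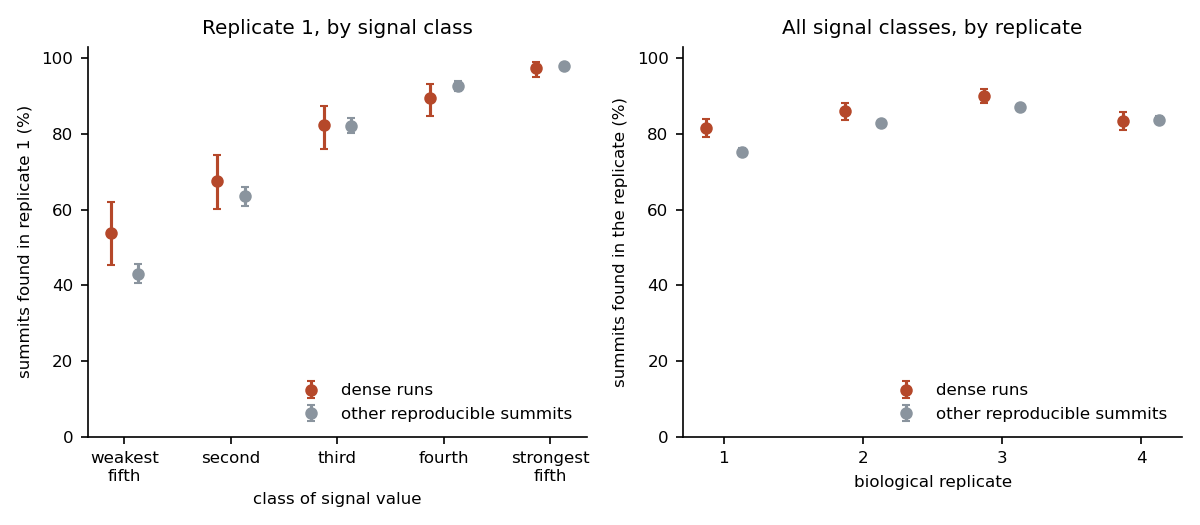
Left, percentage of summits with a summit of replicate 1 within 100 bp (vertical axis) by class of signal value (horizontal axis). Right, the percentage in each biological replicate over all classes. Dense runs are in red left of the other reproducible summits in grey, and error bars are 95% exact binomial intervals. Support is 53.8% in the weakest and 97.5% in the strongest class of members, and overall support in replicate 1 is 81.6% for members and 75.3% for the others.

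Whole runs could also be found from replicate 1 alone. The same rule, applied to its strongest 9154 summits, gave 122 runs. Of the 96 dense runs 79 overlapped 1 of them (82.3%, interval 73.2 to 89.3%). In the other direction, 80 of the 122 runs (65.6%) overlapped a dense run. Any overlap of spans counted, and the share that would overlap by position alone was not computed. Replicates 2, 3 and 4, which were inputs of the list and are not independent of it, gave 105, 100 and 91 runs and recovered 76, 71 and 69. By size, 18 of 32 runs with 8 summits were found again in replicate 1, 29 of 30 with 9 or 10, and 32 of 34 with 11 or more. The exceptions among the last were msn and tna. In all 4 replicates 42 runs were found, and in none 2, which were the CG43131 run described above and the run at lbk. Every member was supported in replicate 1 in 16 runs, among them Tis11, Fs and InR, and in no run was the share under 50%. The Mnt run had 14 of 15 members supported, and the CG5151 run 11 of 17. Each replicate's list had 6.10 to 6.78% of its 30000 summits inside the spans of the dense runs, which cover 1.27% of the arms. For replicates 2 to 4 a share above 1.27% follows from the rule, because the spans were chosen as dense in a list made from them. In replicate 1, which was not an input, the share was 6.78%.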

How the data were processed

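The deposited lists hold peak positions on dm6, an authors' signal score per peak, a deposited −log10 q-value, which reaches a common ceiling and was not used, and the deposited summit offset in bp (an other value). Per the file headers and deposited notes, each replicate was called against a shared control, and the pooled and reproducible lists came from replicates 2 to 4. How peaks were called and reads aligned, with which threshold, is not given in the sources used here. Summits are 1-based. Gene models are those of Ensembl release 115, and bases were read from RefSeq's dm6. Shares were compared by two-sided Fisher exact tests, summits with flanks by exact McNemar tests, and p-values were adjusted by Benjamini-Hochberg over 10 motifs or 8192 sequences, in Python 3.11.15 with numpy 2.4.6, scipy 1.17.1 and pandas 2.3.3. Intervals are exact at 95%. The statistics were tested on simulated data. Alternatives varied the rule, windows, distances and replicates. Runs named are the 15 with the most summits, those with 1 of the 25 strongest summits and those with 3 or more cores, each called by the gene covering most of its summits. Other genes were named from fixed lists, for microRNAs, as neighbours or, where the text says so, after their values were seen. Members and lists were chosen with earlier results of these data known. Depth is unknown, so counting error over summits is the only precision given.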

Additional observations from a re-analysis of the deposited data

Results flagged for a closer look

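Outside the chromosome arms, replicate 1 listed 25 summits on the mitochondrial genome, and replicates 2, 3 and 4 listed 0. These summits are not part of the arms on which runs were sought, and no control list was available here to set them against. Dixon's test at 95% called no replicate an outlier in any of the 8 measures of the dense runs to which it was applied.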

How the results depend on the processing

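The number of dense runs follows directly from the rule. A largest gap of 3000 or 8000 bp gave 377 or 2134 members in 38 or 185 runs, a smallest run of 6 or 10 summits gave 1787 or 637 in 216 or 50, and the stronger 4577 peaks gave 171 in 17. The lower promoter share of members kept its direction and passed its threshold in all 11 alternatives (odds ratio 0.319 to 0.633), and so did the core at summits against flanks (ratio of at least 3.09 over 11 alternatives). The core share of members stayed below that of the other summits in 13 alternatives (odds ratio 0.507 to 0.936), and passed an unadjusted threshold by the exact test with a gap of 8000 bp (0.784, p = 0.00945), with nearby weaker summits kept (0.730, p = 0.006) and away from starts (0.738, p = 0.0248). The cause was not tested. Support in replicate 1 lost its call by the exact test with all 30000 summits (1.13, p = 0.313) and with 1 summit per run (1.54, p = 0.104), where fewer summits are tested, and turned with the stronger 4577 peaks (0.605, p = 0.0493). Mean support over the replicates was 61.0% with the strongest 5000 summits, 93.5% with all 30000, 72.5% at 50 bp and 90.1% at 200 bp, and 83.7 to 86.6% with each replicate left out. Runs found again in replicate 1 were 65.6% and 94.8% with its strongest 7500 and 12000 summits and 71.1% with a gap of 3000 bp. Without the run at dsx, chosen after seeing the data, the core, promoter and support odds ratios were 0.790, 0.388 and 1.47. No paired analysis was possible because the samples form 1 group. Unknown depth means that a summit missing from a list cannot be told from an undersampled one.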
